A study of Mus musculus with 6 samples.

Results

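The 30 genes described here make cholesterol and fatty acids or control that synthesis. They were taken by symbol from a count table of 22377 genes in macrophages of mouse tumors, and all 30 were found. Of 6 libraries, 3 are labelled wt and 3 are labelled ko and knockdown. Per the methods and results text, the cells were CD45+ CD11b+ F4/80+ macrophages from tumors that had grown under the skin of Npm1+/+ or Npm1+/- hosts after injection of LLC cells, a line of Lewis lung carcinoma. The labels give no genotype, and a knockdown and a heterozygous mouse are different things, so the groups are called wt and ko here as labelled. According to the methods the mice were young, of both sexes, and no treatment of these groups is given, and the tumor cells came from a cell line, so the Npm1 genotype belongs to the host cells only. Neither the age, the sex nor the strain of the animal behind each library is given in the labels. The labels name tumor tissue, TRIzol and a small RNA protocol as the material and method, whereas the methods name sorted cells and a kit for low-input polyadenylated RNA, and these descriptions were not reconciled here.

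Cells make cholesterol from acetyl-CoA by way of mevalonate, squalene and lanosterol, and make fatty acids by joining acetyl-CoA units into palmitate, which is then elongated and desaturated. Both routes are governed by the SREBP transcription factors, which are held in the membrane of the endoplasmic reticulum by Scap and the Insig proteins while sterols are abundant and are released to the nucleus when sterols are scarce. SREBP-2, from Srebf2, acts mainly on sterol genes, and SREBP-1, from Srebf1, mainly on fatty acid genes. Macrophages also take up much cholesterol from dead cells and lipoproteins, and LXR receptors then raise its export while the sterol branch, driven by SREBP-2, is held down.

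The total count was between 36550775 and 38147320 per library, so that 3 counts, taken as the limit of detection, are worth at most 0.0846 CPM (counts scaled to the size of the library), which covers counting error only. All 30 genes were far above this limit. The lowest was Tm7sf2, with 91 counts in wt replicate 2. Of the 22377 genes, 13884 passed the filter on low counts, with all 30 synthesis genes among them, and after TMM scaling the groups were tested by quasi-likelihood in edgeR, with p-values adjusted by Benjamini and Hochberg. The targeted gene, Npm1, stood at 142, 380.2 and 381 CPM in wt replicates 1, 2 and 3 and at 441, 499 and 343 CPM in ko replicates 1, 2 and 3. Its mRNA was therefore not lower in the libraries labelled ko (log2 fold change 0.51, standard error 0.36, adjusted p = 0.436 from edgeR), and without wt replicate 1 the log2 fold change was 0.16. Every direction below is between libraries as labelled. wt replicate 1 stands apart from the other libraries, at -108 on the first principal component against -4.54 to 52.0, and the estimates that it moves by over 1.5 times are given with and without it. The macrophage markers were abundant in each library, with a sum over 12 genes of 20505 to 26379 CPM in wt and 12319 to 21166 CPM in ko, and the estimate of each of the 12 was lower in ko, or of 11 without ko replicate 2, with 0 passing the adjusted threshold.

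The 30 genes lie on 15 chromosomes. On GRCm38, Insig1 spans chr5:28071363-28078662 and Elovl6 chr3:129532355-129638495 on the plus strand, and Acly chr11:100476353-100528000, Fasn chr11:120805846-120824547, Scd1 chr19:44394455-44407879 and Ebp chrX:8185329-8193512 on the minus strand. The promoters are shown first because the matches found in them differed between branches of the pathway, though only 4 fatty acid enzymes were covered. Promoter sequence of RefSeq on GRCm38.p6 was at hand for 24 of the 30 genes, but not for Fdps, Fdft1, Sqle, Scd1, Scd2 or Stard4. The 250 bases before each start were searched on both strands, a gene being counted where any of its starts had the motif. A CCAAT box (letters CCAAT), the site of NF-Y, a factor known to act beside SREBP, was present in 19 of the 24, or 79.2%, against 37.5% of 27025 genes of the mouse. It was found in 9 of 9 squalene and sterol enzymes, 5 of 6 mevalonate enzymes and 4 of 5 control genes, and in 1 of 4 fatty acid enzymes, Fasn. A GC box (GGGCGG) was present in 20 of the 24, or 83.3%, against 35.4% of all genes. An E-box (CACGTG), which SREBP-1 can also bind, was present in 5, or 20.8%, against 6.86%. The core of the sterol regulatory element written as TCACNCCAC was present in 1, Hmgcs1, or 4.17%, against 1.22%. These are matches of letters in a short window and not mapped sites, and the 27025 genes were not limited to those expressed here. No motif searched contains another, although CCAAT and ATTGG overlap each other in Fasn.

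The 6 windows that follow run from 250 to 51 bases before the RefSeq start, 5′ to 3′ on the strand of the gene, with CCAAT boxes on either strand (CCAAT or ATTGG), E-boxes and the sterol element in capitals. Insig1 and Hmgcs1 stand for genes with several of these motifs, and Ebp for the sterol enzyme with the lowest estimate in ko. Acly, Fasn and Elovl6 stand for the steps of fatty acid synthesis, where Acly and Elovl6 have none of the motifs in capitals. GC boxes are not marked, and Acly has 4 of them in its 250 bases.
Insig1, chr5:28071162-28071361, plus strand: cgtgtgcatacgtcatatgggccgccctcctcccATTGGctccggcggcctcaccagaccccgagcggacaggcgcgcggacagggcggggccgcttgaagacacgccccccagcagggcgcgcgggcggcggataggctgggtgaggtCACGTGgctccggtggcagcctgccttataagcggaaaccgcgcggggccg
Hmgcs1, chr13:119690101-119690300, plus strand: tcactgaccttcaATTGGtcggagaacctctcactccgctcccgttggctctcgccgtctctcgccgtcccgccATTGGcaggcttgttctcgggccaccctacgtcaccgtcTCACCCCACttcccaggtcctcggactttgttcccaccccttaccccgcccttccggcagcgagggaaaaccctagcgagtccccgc
Ebp, chrX:8193563-8193762, minus strand: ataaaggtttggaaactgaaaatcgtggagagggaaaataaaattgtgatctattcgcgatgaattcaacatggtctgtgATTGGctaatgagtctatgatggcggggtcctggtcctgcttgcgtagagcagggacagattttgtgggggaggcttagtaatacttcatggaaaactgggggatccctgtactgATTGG
Acly, chr11:100528051-100528250, minus strand: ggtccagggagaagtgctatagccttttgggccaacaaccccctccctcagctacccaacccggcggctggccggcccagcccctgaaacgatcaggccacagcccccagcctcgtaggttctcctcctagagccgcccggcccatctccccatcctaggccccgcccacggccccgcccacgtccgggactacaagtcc
Fasn, chr11:120824598-120824797, minus strand: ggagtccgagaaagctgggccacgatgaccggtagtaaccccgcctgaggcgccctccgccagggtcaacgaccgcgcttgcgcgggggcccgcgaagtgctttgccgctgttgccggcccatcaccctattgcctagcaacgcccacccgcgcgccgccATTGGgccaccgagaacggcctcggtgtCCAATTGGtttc
Elovl6, chr3:129532136-129532335, plus strand: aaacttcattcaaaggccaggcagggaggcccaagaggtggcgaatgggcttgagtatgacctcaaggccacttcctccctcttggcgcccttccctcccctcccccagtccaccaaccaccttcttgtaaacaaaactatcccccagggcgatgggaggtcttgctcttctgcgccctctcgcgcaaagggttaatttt

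The levels of the 30 genes differed widely within these cells. Per gene length, as FPKM averaged over the 6 libraries, the most abundant were Fdps, which makes farnesyl diphosphate, at 63.8, Insig1 at 53.2, Srebf2 at 47.7, Acly at 39.5 and Scd2 at 35.7. The least abundant was Hsd17b7 at 2.19, followed by Lss, Insig2 at 2.70 and Tm7sf2 at 2.72. The 30 genes together held between 0.190% and 0.217% of all counts of a library. Most of them also varied little from library to library. The highest CPM of a gene over its lowest had a median of 1.48 among the 30 genes. It was 1.82 among 13731 genes tested that had counts in every library. Those genes were not matched to the 30 on level, and counting error widens the ratio at low counts. Among the 30 the ratio was largest for Elovl6 at 5.62, Scd1 at 3.25 and Idi1 at 2.53, and smallest for Scd2 and Hsd17b7, both at 1.203.

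Between the groups, none of the 30 genes passed an adjusted p of 0.05 in edgeR over the 6 libraries, and the share of all genes tested that passed was 0%. The adjusted p of the 30 genes lay between 0.328 and 0.969. The value 0.328 was also the lowest over all genes tested. It is shared by genes of unlike unadjusted p, so it does not rank them. DESeq2 on the same libraries also called 0 of the 30, with 0.263% of all genes called. At an unadjusted p under 0.05 edgeR gave 2 of the 30, Insig1 and Scd1, both higher in ko, against 6.9% of all genes higher and 8.31% lower. DESeq2 gave 2 as well, where 2451 genes in all were under this limit. The estimate was higher in ko for 16 of the 30 genes and lower for 14, where 52.1% of all genes had a higher estimate, and the median log2 fold change was 0.049 against 0.022 over all genes tested. In 5 genes each library labelled ko exceeded each wt library, against 13.3% of all genes, and in 3 genes each lay below, against 12.6%. With scaling to the total count alone these numbers became 8 and 0, against 18.6% and 6.88% of all genes, so that the 3 genes below are lost with that scaling, while RLE scaling gave 3 and upper quartile scaling 2.

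**Figure D1:**
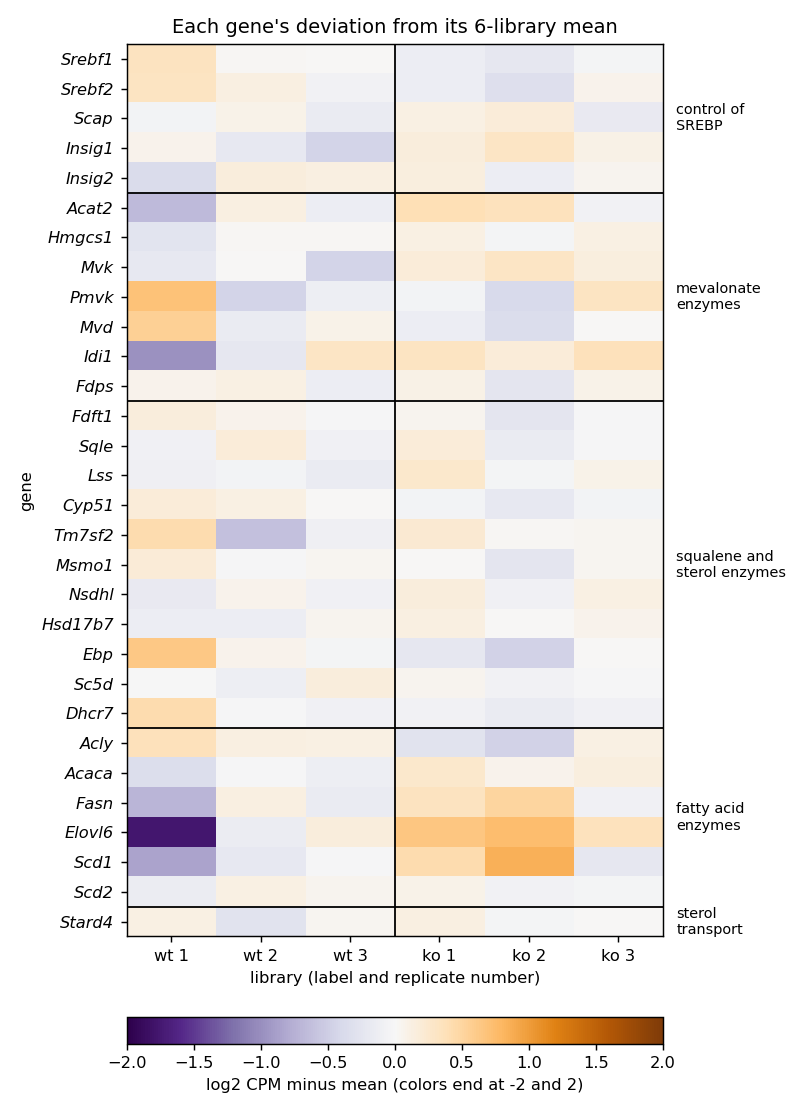
Deviation of the log2 CPM of each of the 30 genes (rows, grouped by role) from its mean over the 6 libraries (columns, by label and replicate), with purple below and orange above the mean. The darkest cell is Elovl6 in wt replicate 1, at -1.75, and most sterol enzymes stay pale in all libraries.

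Among the 5 control genes, Insig1 was the gene with the clearest separation. Insig1 encodes the protein that retains Scap and SREBP in the endoplasmic reticulum, and it is itself a target of SREBP. It stood at 144, 120.2 and 101 CPM in wt replicates 1, 2 and 3 and at 154, 170.0 and 148 CPM in ko replicates 1, 2 and 3, so that the groups did not overlap. The wt mean was 122 ± 21.5 CPM (SD, n = 3) and the ko mean 157 ± 11.5 CPM (SD, n = 3), a log2 fold change of 0.37 with a standard error of 0.15 (adjusted p = 0.328 from edgeR). Without wt replicate 1, which had the highest wt value, the log2 fold change of Insig1 was 0.50 (standard error 0.14, adjusted p = 0.406). Insig2, its paralog, was between 14.6 and 21.0 CPM in wt and between 17.2 and 20.7 CPM in ko, and its log2 fold change of 0.032 (standard error 0.19) turned to -0.12 without wt replicate 1.

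The estimates of both transcription factors were on the lower side in ko. Srebf1 stood at 122, 97.8 and 97.1 CPM in wt and at 88.3, 83.6 and 94.3 CPM in ko, without overlap, with a log2 fold change of -0.25 (standard error 0.13, adjusted p = 0.351 from edgeR). Srebf2 stood at 328, 288 and 252 CPM in wt and at 241, 212 and 276 CPM in ko, where ko replicate 3 lies within the wt range, with a log2 fold change of -0.25 (standard error 0.15, adjusted p = 0.389). Both genes were highest in wt replicate 1, and without it the log2 fold changes were -0.14 (standard error 0.12) for Srebf1 and -0.15 (standard error 0.16) for Srebf2. Scap, the escort of SREBP to the Golgi, had a log2 fold change of 0.091 (standard error 0.14) with overlapping groups. None of the 3 passed the threshold. The FPKM of Insig1 and Srebf2 were also compared within each library, as a ratio that no scaling alters and that was chosen after the values were seen. Insig1 over Srebf2 was 0.920, 0.874 and 0.841 in wt and 1.34, 1.68 and 1.12 in ko, so that each library labelled ko exceeded each wt library. Insig1 over Insig2 was 26.2, 15.1 and 13.1 in wt and 19.7, 26.2 and 20.1 in ko, and these overlapped.

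The 7 mevalonate enzymes gave mixed estimates, 4 higher and 3 lower, with a median log2 fold change of 0.13 and 0 past the adjusted threshold. Mvk, mevalonate kinase, was the single enzyme of this group whose libraries did not overlap. It stood at 8.15, 9.36 and 6.87 CPM in wt and at 10.6, 11.5 and 10.3 CPM in ko, a log2 fold change of 0.41 (standard error 0.19, adjusted p = 0.334 from edgeR). The enzymes after it, phosphomevalonate kinase (Pmvk) and the decarboxylase Mvd, had estimates on the lower side. Pmvk was 95.6 CPM in wt replicate 1 against 43.0 to 73.8 CPM in the other 5 libraries, and its log2 fold change of -0.14 (standard error 0.31) became 0.26 without that library. Mvd had 42.9 CPM in wt replicate 1 and 22.9 to 31.0 CPM elsewhere, with a log2 fold change of -0.34 (standard error 0.21) over 6 libraries and -0.12 without wt replicate 1.

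Idi1, which isomerizes isopentenyl diphosphate, and Acat2, the thiolase of the cytosol that opens the route, were lowest in wt replicate 1. Idi1 had 10.1, 17.3 and 24.7 CPM in wt and 24.98, 22.6 and 25.6 CPM in ko. Acat2 had 7.31, 12.7 and 10.5 CPM in wt and 15.1, 14.7 and 10.9 CPM in ko. In both genes 1 library of each group lay within the range of the other, and the log2 fold changes were 0.49 (standard error 0.30) for Idi1 and 0.42 (standard error 0.25) for Acat2. Without wt replicate 1 they were 0.21 (standard error 0.18) for Idi1 and 0.23 (standard error 0.20) for Acat2. Hmgcs1, which makes HMG-CoA, had a log2 fold change of 0.13 (standard error 0.13), and Fdps had -0.036 (standard error 0.14), which were 0.033 and -0.016 without that library. Reads of Acat2, Fdps, Idi1 and Hmgcs1 could be shared with other genes, since 39.1%, 26.2%, 25.3% and 11.6% of the 50-base stretches in their transcripts also occur in transcripts of another gene, for Acat2 mainly Acat3. How the authors treated such reads is not given in the sources used here, and these values are uncertain for that reason.

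The 11 enzymes from squalene to cholesterol had a median log2 fold change of -0.040 and a range from -0.45 to 0.21, with 4 estimates higher and 7 lower, and 9 of the 11 had overlapping groups. None passed the adjusted threshold. Sqle, squalene epoxidase and a rate-setting step, had 44.8, 54.2 and 45.0 CPM in wt and 53.6, 42.7 and 46.6 CPM in ko, with a log2 fold change of -0.011 (standard error 0.14). Fdft1, squalene synthase, had a log2 fold change of -0.14 (standard error 0.13), Msmo1 of -0.13 (standard error 0.13) and Sc5d of -0.040 (standard error 0.13). Nsdhl and Hsd17b7, which like Msmo1 act in the removal of methyl groups from lanosterol products, had 0.13 (standard error 0.15) and 0.14 (standard error 0.16). Without wt replicate 1 the log2 fold change was -0.062 for Sqle, -0.075 for Msmo1, -0.057 for Sc5d and 0.069 for Nsdhl, all within 1 standard error of 0. Fdft1 shares 26.5% of its 50-base stretches, mostly with the overlapping gene Ctsb on the other strand, and whether the counting used strand is not given in the sources used here.

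The 2 sterol enzymes whose groups did not overlap lay on opposite sides. Lss, which folds squalene epoxide into lanosterol, had 16.0, 16.5 and 15.3 CPM in wt and 20.4, 16.7 and 18.2 CPM in ko, with a log2 fold change of 0.21 (standard error 0.15, adjusted p = 0.428 from edgeR). Cyp51, which removes a methyl group from lanosterol, had 103, 98.7 and 91.2 CPM in wt and 87.3, 79.4 and 87.6 CPM in ko, with a log2 fold change of -0.20 (standard error 0.11, adjusted p = 0.356). The gap between the groups was narrow in both genes, and in Lss the lowest library labelled ko was 16.7 CPM against a highest wt value of 16.5 CPM.

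Ebp, the sterol isomerase whose promoter is printed above, had the lowest estimate of all 30 genes. It stood at 62.1, 42.2 and 39.2 CPM in wt and at 34.9, 29.2 and 40.6 CPM in ko, with a log2 fold change of -0.45 (standard error 0.21, adjusted p = 0.333 from edgeR). The high wt value was again that of replicate 1, and without it the log2 fold change of Ebp was -0.22 (standard error 0.16). Dhcr7, the reductase of the last step, had 18.3 CPM in wt replicate 1 and between 12.2 and 13.4 CPM in the other 5 libraries, so that its log2 fold change of -0.23 (standard error 0.19) came down to -0.052 without that library. Tm7sf2, a sterol reductase, was low throughout at 2.57 to 5.26 CPM, with a log2 fold change of 0.14 (standard error 0.31) that was 0.43 (standard error 0.28) without wt replicate 1. Stard4, a carrier of cholesterol between membranes, had 27.3 to 35.7 CPM in wt and 32.1 to 36.3 CPM in ko, with a log2 fold change of 0.066 (standard error 0.15), or 0.14 without wt replicate 1.

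**Figure D2:**
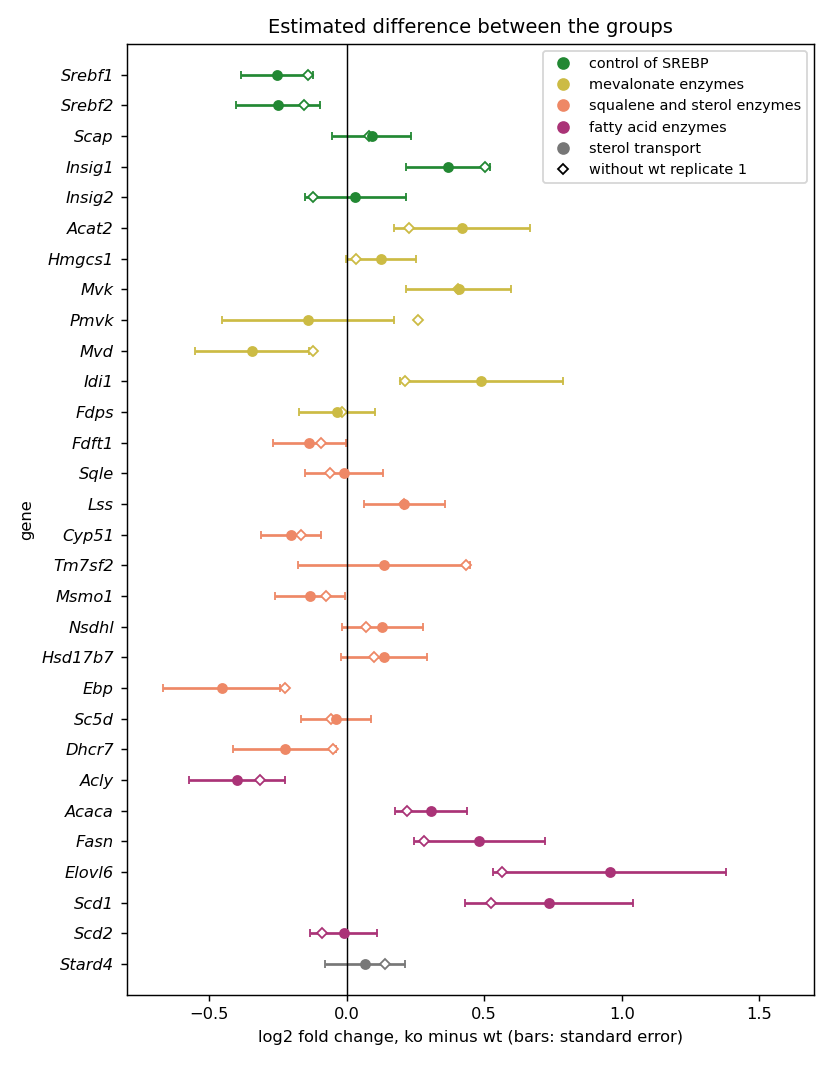
Log2 fold change, ko minus wt, of the 30 genes from edgeR over 6 libraries (filled points, with the standard error as bars) and without wt replicate 1 (open diamonds), colored by role. The sterol enzymes lie within 0.5 of 0 on either side, while Elovl6 and Scd1 have the highest estimates, at 0.96 and 0.73, and the widest bars among the fatty acid enzymes.

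The 6 fatty acid enzymes had a median log2 fold change of 0.39 over 6 libraries and 0.25 without wt replicate 1. Of the 6, 4 had a higher and 2 a lower estimate, and with total count scaling Scd2 turned to the higher side. Elovl6, which elongates palmitate to stearate, had the largest difference of the 30 genes. It stood at 9.11, 27.7 and 34.5 CPM in wt and at 48.0, 51.2 and 39.1 CPM in ko, so that each library labelled ko exceeded each wt library. The wt mean was 23.8 ± 13.1 CPM (SD, n = 3) and the ko mean 46.1 ± 6.23 CPM (SD, n = 3), a 1.94-fold difference (log2 fold change 0.96, standard error 0.42, adjusted p = 0.329 from edgeR). wt replicate 1 was far below the other wt libraries, and without it the log2 fold change of Elovl6 was 0.56 (standard error 0.17, adjusted p = 0.406), smaller but with a narrower error.

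Scd1, the desaturase that makes oleate and palmitoleate, had 22.6, 35.3 and 39.9 CPM in wt and 54.5, 73.4 and 34.8 CPM in ko. The third library labelled ko thus lay within the wt range while the others were above it, and the log2 fold change of Scd1 was 0.73 (standard error 0.31, adjusted p = 0.328 from edgeR). Scd2, its neighbor on chromosome 19 and the more abundant of the pair in these macrophages, had 174, 209.8 and 201 CPM in wt and 207, 185 and 189 CPM in ko, with a log2 fold change of -0.011 (standard error 0.12), or -0.089 (standard error 0.13) without wt replicate 1. The 50-base stretches shared with other genes were 4.56% for Scd1 and 3.97% for Scd2. Scd1 over Scd2, as FPKM within a library, was 0.146, 0.190 and 0.223 in wt and 0.297, 0.447 and 0.208 in ko, with overlap.

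Fasn, which builds palmitate, followed the same order of libraries as Scd1 at its low and high ends. It had 71.0, 127 and 103 CPM in wt and 146, 165 and 109 CPM in ko, with a log2 fold change of 0.48 (standard error 0.24, adjusted p = 0.341 from edgeR), and ko replicate 3 lay below wt replicate 2. Without wt replicate 1, the lowest library, the log2 fold change of Fasn was 0.28 (standard error 0.19). Acaca, the carboxylase that supplies malonyl-CoA to Fasn, had 31.5, 38.9 and 36.6 CPM in wt and 47.2, 41.4 and 43.7 CPM in ko without overlap, with a log2 fold change of 0.31 (standard error 0.13, adjusted p = 0.328). Of the 50-base stretches of Acaca, 30.4% occur in another gene, mainly Gm5182, so its level is uncertain.

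Acly, which splits citrate to supply acetyl-CoA to both routes, had its estimate on the other side. It had 397, 337 and 336 CPM in wt and 254, 224 and 334 CPM in ko, where ko replicate 3 lay just under the lowest wt library, with a log2 fold change of -0.40 (standard error 0.17, adjusted p = 0.328 from edgeR). Within a library, the FPKM of Elovl6 over that of Acly was 0.0302, 0.108 and 0.135 in wt and 0.249, 0.302 and 0.155 in ko, and that of Acaca over Acly was 0.0583, 0.0849 and 0.0804 in wt and 0.137, 0.136 and 0.0964 in ko. Both ratios were higher in each library labelled ko than in each wt library. This had to follow, since Elovl6 and Acaca lay above and Acly below in each library labelled ko, so it adds nothing to those values. Fasn over Acly, at 0.134, 0.283 and 0.231 in wt and 0.432, 0.556 and 0.246 in ko, overlapped through ko replicate 3, and Elovl6 over Fasn, at 0.225, 0.383 and 0.586 in wt and 0.575, 0.543 and 0.629 in ko, overlapped as well. These pairs were chosen after the values were seen, and no test was made of them.

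**Figure D3:**
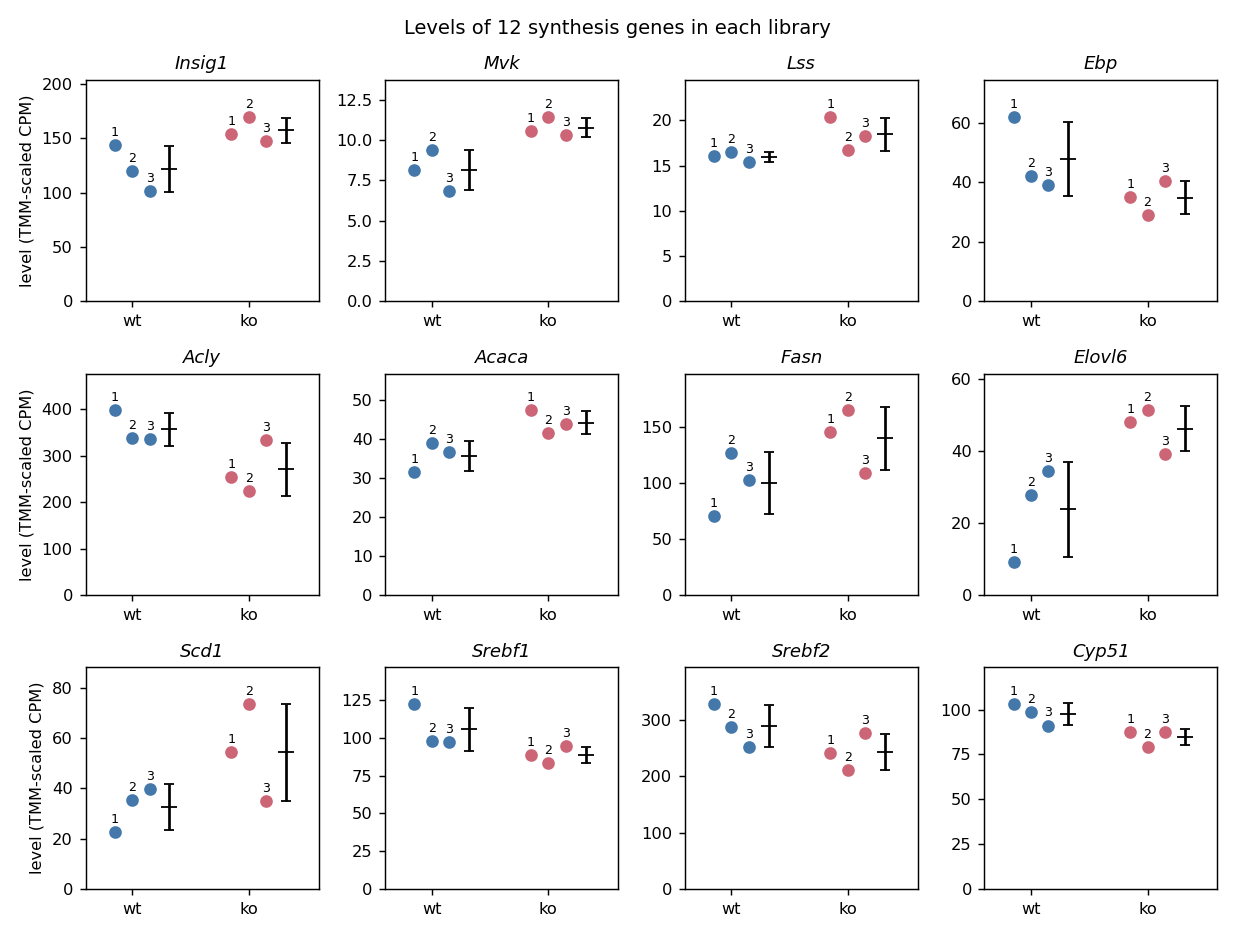
Levels of 12 of the 30 genes in each library, as TMM-scaled CPM on axes that start at 0 (points numbered by replicate, blue for wt and red for ko, with the mean and SD of each group beside them). Elovl6, Insig1, Mvk, Lss and Acaca lie higher in each library labelled ko and Acly, Srebf1 and Cyp51 lower, while Fasn, Scd1, Ebp and Srebf2 overlap.

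Calls among these genes depended on the libraries and on the test. Without wt replicate 1 and ko replicate 3, edgeR called 0 of the 30 genes at an adjusted p of 0.05, and 0 of all genes tested. At an unadjusted p under 0.05 it gave 5, namely Insig1, Acly, Fasn, Elovl6 and Scd1. Among all genes tested in that fit 3290 were under this limit, so the 5 do not set these genes apart. DESeq2 on the same 4 libraries called 4. Of these, Scd1 (log2 fold change 0.72, standard error 0.20, adjusted p = 0.00893), Elovl6 (0.63, standard error 0.19, adjusted p = 0.0177) and Insig1 (0.51, standard error 0.18, adjusted p = 0.0415) were higher in ko, where 4.42% of all genes were called higher. Acly (-0.53, standard error 0.16, adjusted p = 0.0171) was lower, where 6.21% of all genes were called lower. In edgeR on these 4 libraries the adjusted p was 0.108 for Scd1, 0.110 for Elovl6, 0.115 for Insig1 and 0.118 for Acly. Of the libraries labelled ko, replicate 3 was the nearest to wt in each of these 4 genes over the 6 libraries, so that leaving it out widens their differences, and these calls are no independent evidence. A heatmap legend of the study gives fewer mice per group than the libraries labelled here, which libraries it refers to was not worked out, and these 4 libraries are not meant to stand for them.

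Transcripts used as markers of other cells and of cell division differed between the libraries, some of them in a like order to several fatty acid enzymes. Which cells they came from was not tested. The fibroblast list summed to 4468 to 5800 CPM in wt and 3077 to 4698 CPM in ko, most of it Fn1, which macrophages also express. The list without Fn1 was chosen after the values were seen. Its 11 genes summed to 46.8, 540 and 335 CPM in wt and to 779, 677 and 404 CPM in ko. The largest part was Col3a1, at 19.01, 426 and 245 CPM in wt and 604, 474 and 308 CPM in ko. Col1a1 and Col1a2 stayed at or below 5.52 CPM, and Postn at or below 0.733 CPM. Thy1 was highest in ko replicate 2, at 69.7 CPM, as the T cell list was. Of the 11 estimates 10 were higher and 1 lower in ko. Acta2 was lower in each library labelled ko than in each wt library. A list of 6 cell cycle genes, also chosen afterwards, summed to 46.7, 258 and 230.0 CPM in wt and to 347, 397 and 268 CPM in ko. Both lists were lowest in wt replicate 1 and had ko replicates 1 and 2 at the top, as Elovl6, Fasn and Scd1 did. The epithelial or carcinoma list had the same low and high ends. It summed to 36.1, 138 and 80.4 CPM in wt and to 192, 183 and 129 CPM in ko. Within it Krt8 had 9.90, 117 and 59.1 CPM in wt and 171, 165 and 105 CPM in ko. Cdh1 was highest in wt replicate 1, at 24.3 CPM, and of the genes tested 2 were higher and 2 lower. T cell markers ranged from 31.3 to 109 CPM in wt and from 88.4 to 245 CPM in ko, B cell markers from 6.26 to 36.1 and from 11.8 to 58.0 CPM, and epithelial or carcinoma markers from 36.1 to 138 and from 129 to 192 CPM. Neutrophil markers ranged from 1806 to 2020 CPM in wt and from 795 to 1580 CPM in ko, and dendritic cell markers from 326 to 494 and from 398 to 521 CPM. Endothelial markers lay between 30.1 and 40.1 CPM in all libraries. Adipocyte markers summed to at most 16.3 CPM in any library, and Adipoq, Plin1, Cidec and Lep, which define that cell, were at or below 0.22 CPM in each. None of these lists had a gene past the adjusted threshold. The part of other cells and of cell division in the values of Elovl6, Fasn and Scd1 was not tested, and in such bulk libraries fewer cells of a type cannot be told apart from less RNA per cell.

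**Figure D4:**
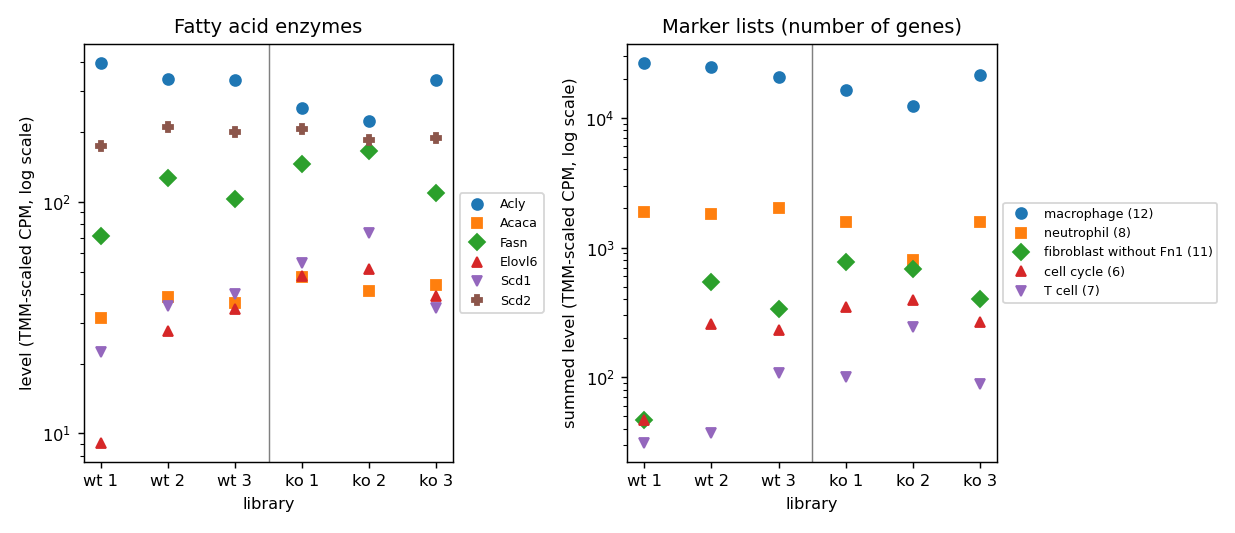
Left, TMM-scaled CPM of the 6 fatty acid enzymes in each library, and right, the summed CPM of 5 marker lists, both on log axes with wt libraries left of the grey line. Elovl6, Fasn and Scd1, the fibroblast genes without Fn1 and the cell cycle genes are all lowest in wt replicate 1, and Acly and the macrophage list are lowest in ko replicate 2.

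Other genes that act on the same lipids were compared with the synthesis genes by lists that hold none of the 30. Of 26 further genes of SREBP control and lipid synthesis, 25 were tested, 12 with a higher and 13 with a lower estimate, and their median log2 fold change was -0.076. None passed the adjusted threshold in edgeR or DESeq2, and 1 was higher at an unadjusted p under 0.05. This was Fads2, a desaturase of polyunsaturated fatty acids, with 8.15, 16.9 and 13.0 CPM in wt and 25.9, 18.8 and 17.9 CPM in ko (log2 fold change 0.72, standard error 0.29, adjusted p = 0.328 from edgeR). Elovl1, an elongase of long chains, had a log2 fold change of -0.31 (standard error 0.15), and Me1, which supplies NADPH, one of 1.18 (standard error 0.67) with 0.984 CPM in wt replicate 1 against 5.75 to 14.5 CPM in the others. Without that library the log2 fold change was 0.48 (standard error 0.21) for Fads2, -0.15 (standard error 0.12) for Elovl1 and 0.68 (standard error 0.28) for Me1.

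The lists for the handling of cholesterol that cells already hold lay lower in ko than the synthesis genes. Of 12 genes of efflux, storage and LXR, 10 had a lower estimate, 9 of them at an unadjusted p under 0.05, against 8.31% of all genes, and the median log2 fold change was -0.55. In 8 of the 12 each library labelled ko lay below each wt library, against 12.6% of all genes. Apoe, the apolipoprotein that carries cholesterol out of macrophages, had 569, 548 and 507 CPM in wt and 307, 271 and 415 CPM in ko (log2 fold change -0.71, standard error 0.18, adjusted p = 0.328 from edgeR). Soat1, which esterifies cholesterol for storage, had -0.75 (standard error 0.19), and Abcg1, an exporter, had -0.72 (standard error 0.19), both without overlap and both with an adjusted p of 0.328.

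Of 10 genes of uptake and lysosomal export, 9 were tested, all 9 with a lower estimate and 6 at an unadjusted p under 0.05, against 8.31% of all genes, with a median log2 fold change of -0.51. Npc1, which moves cholesterol out of the lysosome, had 159, 167 and 145 CPM in wt and 96.9, 92.9 and 115 CPM in ko (log2 fold change -0.63, standard error 0.13, adjusted p = 0.328 from edgeR). Lrp1, an endocytic receptor, had -0.77 (standard error 0.19) and Lipa, the lipase of the lysosome, -0.53 (standard error 0.16). None of the genes of these 2 lists passed the adjusted threshold in edgeR or in DESeq2 over 6 libraries, while DESeq2 without wt replicate 1 and ko replicate 3 called 5 of the 12 and 7 of the 9 as lower, against 6.21% of all genes. Besides the 6 named, and named after these values were seen, these were Rxra, the partner of LXR (log2 fold change -0.60 in that fit), Nceh1, which splits cholesterol esters (-0.56), the scavenger receptors Cd36 (-0.53), Msr1 (-0.56) and Olr1 (-0.71), and Npc2, which works with Npc1 (-0.58). Over 6 libraries the groups of Rxra, Nceh1 and Npc2 did not overlap, with log2 fold changes of -0.64, -0.46 and -0.51. Those of Cd36, Msr1 and Olr1 overlapped, with log2 fold changes of -0.29, -0.13 and -0.063 (standard errors 0.15, 0.23 and 0.47). Without wt replicate 1 the log2 fold change was -0.28 (standard error 0.22) for Msr1 and -0.48 (standard error 0.19) for Olr1. Msr1 was highest in ko replicate 3, at 640 CPM, a library left out of the 4-library fit. The medians stayed between -0.70 and -0.33 for the first list and between -0.61 and -0.36 for the second in all 17 alternatives, though in the second list 1 gene turned to the higher side with total count scaling, in both limma fits, with the replicate number as a block and without wt replicate 2, wt replicate 3 or ko replicate 1, and 2 did without ko replicate 2. The macrophage list was lower over the same libraries, as given above, with a median log2 fold change of -0.54, about that of these 2 lists. Its part in these values was not tested. The difference between these lists and the synthesis genes was not tested either.

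**Figure D5:**
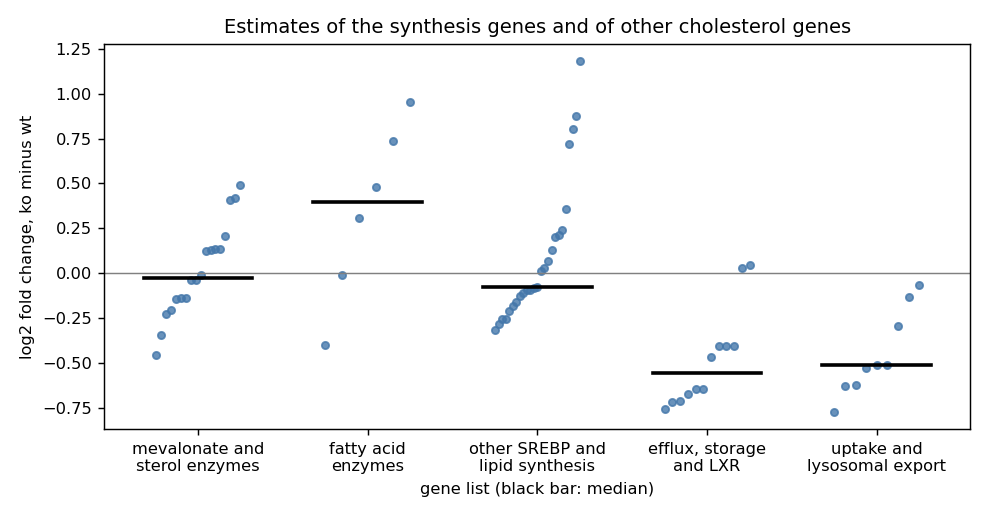
Log2 fold change, ko minus wt, of single genes (points) in 5 lists, with the median of each list as a black bar. The medians are -0.023 for the mevalonate and sterol enzymes, 0.39 for the fatty acid enzymes, -0.076 for other lipid synthesis genes, -0.55 for efflux, storage and LXR and -0.51 for uptake and lysosomal export.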

How the data were processed

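RNA of macrophages sorted from mouse tumors was sequenced in 6 libraries, 3 per group. For each gene the authors deposited the raw count, a whole number, and its FPKM. Dividing count by FPKM gave 1 length per gene within a tolerance of 0.001 in 19899 of 19899 genes, so the deposited FPKM are scaled by the total count only. The submitters' processing notes name the build mm10, and the aligner, counter and annotation are not given in the sources used here. The counts were analysed with edgeR 4.0.16 in R 4.3.3 using filterByExpr, TMM, glmQLFit and glmQLFTest, with Benjamini-Hochberg adjustment over 13884 genes and a threshold of 0.05. Each standard error was taken from the log2 fold change and its F statistic. CPM are TMM-scaled. DESeq2 1.42.0 and limma 3.58.1 on log2 FPKM plus 1 or 0.1 served as alternatives, and the tests were checked on simulated counts. The planted changes were larger than any estimate among the 30 genes, so differences of the size given here were not covered. The labels give each library its own biosample but name no animal, so p-values measure the spread between these libraries, which may be partly technical. The lowest chi-square per gene between libraries of a group was 31.1, where a library sequenced again would be near 1. Gene positions and overlaps are from GENCODE M21 on GRCm38, the build mm10, with symbols matched for 30 of 30 genes.

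All 30 genes are named, and of each of the 3 further lipid lists the 3 with the smallest p and any past the threshold in edgeR or DESeq2 on all 6 libraries. The genes, lists and alternatives were chosen with earlier results of these data known. The lists cover control of SREBP, mevalonate enzymes, squalene and sterol enzymes, fatty acid enzymes, 3 further lipid lists, and markers of macrophages, fibroblasts, epithelial or carcinoma cells, T cells, B cells, neutrophils, dendritic cells, endothelial cells and adipocytes.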

Additional observations from a re-analysis of the deposited data

How the results depend on the processing

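No synthesis gene passed an adjusted p of 0.05 in 16 of 17 alternatives. The exception was DESeq2 without wt replicate 1 and ko replicate 3, with 4 genes, where 1283 genes in all were called, and the cause was not tested. In edgeR, 0 genes of any kind passed over the 6 libraries, without wt replicate 1, and without wt replicate 1 and ko replicate 3. DESeq2 over 6 libraries called 0.263% of all genes. A count of 0 among the 30 therefore says nothing about these genes in particular in those fits. Of the 30 genes, 19 kept their direction in all 17 alternatives, Elovl6, Scd1, Fasn, Acaca, Acly and Insig1 among them. Leaving out 1 library moved the log2 fold change of Elovl6 between 0.56 (without wt replicate 1) and 1.31.

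Scaling to the total count moved the median of all genes to 0.17 and limma on log2 FPKM plus 0.1 moved it to 0.16. The medians of the 30 genes and of the mevalonate and sterol enzymes were 0.20 and 0.12 with total count scaling, 0.16 and 0.12 with FPKM plus 1, and 0.20 and 0.12 with FPKM plus 0.1, so that the sterol enzymes stayed below the shift of all genes in the first and last of these. The genes without overlap, higher and lower, numbered 8 and 0 in these 3 settings, 10 and 5 without wt replicate 1 and ko replicate 3 in edgeR, 8 and 8 in DESeq2 on those libraries, and 5 to 9 and 3 to 7 with 1 library left out. The higher count was 9 without ko replicate 2 or ko replicate 3, and the lower count was 5, 7 and 5 without wt replicate 2, wt replicate 3 and ko replicate 3, where fewer libraries make overlap rarer by construction. With total count scaling the shares of all genes were 18.6% and 6.88%. The share of all genes without overlap was not counted with fewer libraries. The counts in those settings therefore say nothing about the 30 genes in particular.

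Some estimates changed sign. With total count scaling they were Fdps (0.11), Fdft1 (0.013), Sqle (0.14), Msmo1 (0.011), Sc5d (0.11) and Scd2 (0.14), all below the shift of all genes. With FPKM plus 1 they were Pmvk (0.056), Fdps (0.11), Fdft1 (0.0085), Sqle (0.13), Msmo1 (0.012), Sc5d (0.099) and Scd2 (0.14), and with FPKM plus 0.1 Pmvk (0.062), Fdps (0.11), Fdft1 (0.010), Sqle (0.14), Msmo1 (0.012), Sc5d (0.11) and Scd2 (0.14). With upper quartile scaling they were Sqle (0.023) and Scd2 (0.024), and under a minimum of 10 counts in all libraries Sqle (0.017) and Scd2 (0.017). Without wt replicate 1 and ko replicate 3 they were Insig2 (-0.14) and Pmvk (0.052) in edgeR, and Insig2 (-0.17), Hmgcs1 (-0.034) and Pmvk (0.018) in DESeq2. With 1 library left out the ranges that cross 0 were -0.12 to 0.12 for Insig2, -0.37 to 0.26 for Pmvk, -0.12 to 0.061 for Fdps, -0.11 to 0.081 for Sqle, -0.088 to 0.43 for Tm7sf2 (0.46 without wt replicate 1 and ko replicate 3), -0.11 to 0.024 for Sc5d, -0.089 to 0.040 for Scd2 and -0.045 to 0.14 for Stard4.

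No pairing by replicate number was seen, as the deviations of same-numbered libraries from their group means correlated at -0.241, 0.060 and -0.337. The deviations of a group sum to 0, so these values depend on each other and cannot exclude pairs. In a fit with a replicate block, 0 of the 30 genes passed, 16 had a higher estimate and the log2 fold change was 1.14 for Elovl6 (adjusted p = 0.408 from edgeR). The block changed no call. Depth limits Tm7sf2, the gene with the fewest counts, most.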
